A study of Arabidopsis thaliana with 42 samples.

Results

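The small RNA of Arabidopsis thaliana leaves at day 20 after leaf emergence was compared with that of leaves at days 12 and 16. Of the 14 small RNA libraries in a series of 42 libraries, 6 entered the comparison: 2 of day 20, one from each of 2 sets, and 4 of the earlier ages, one per set from day 12 and from day 16. They were chosen by age alone, from the count columns of those days. The labels give leaf tissue and the days since emergence and no treatment; ecotype, leaf position and growth conditions are not given in these sources. The sets are described as independent biological replicates without a statement of what was separate. The p-values of fits over all ages therefore reflect how far single libraries of an age lie from each other, some of which may be technical. The exact permutation test and the fit to the 6 libraries alone join days 12 and 16, so their spread also includes the difference between these ages. Bulk tissue was sequenced, so fewer cells of a type and less RNA per cell cannot be told apart. In total RNA of the same ages, 3 leaf genes lay between 1014 and 3103 FPKM (fragments per kilobase of transcript, scaled to the library), the root gene PYK10 between 0.184 and 2.29 FPKM, the flower genes AP3 and PI at or under 0.162 FPKM, and the seed gene CRA1 was listed at 0.

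Plant small RNAs include microRNAs, cut by DICER-LIKE1 from hairpin precursors and mostly 21 nt long, which guide ARGONAUTE1 to complementary messenger RNAs and lead to their cleavage or reduced translation. Other classes are trans-acting siRNAs of 21 nt, heterochromatic siRNAs of 24 nt that direct DNA methylation, and fragments of longer RNAs such as ribosomal and transfer RNA. In leaves, microRNAs act in polarity, growth arrest, the juvenile-to-adult change, nutrient use and the timing of senescence.

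Each table entry was a sequence with its read count in each library. Reads of sequences listed in both sets' tables, the base of all shares below, summed to 7775274 and 5666299 in the day 20 libraries of sets 1 and 2, 4885885 and 7982097 at day 12, and 8696655 and 7976544 at day 16, with set 1 before set 2 here and in all values that follow. Many sequences were listed together with their reverse complement, so each such pair was used once and its strand is unknown. Set 1 of day 20 differed from every other library in long sequences: 34 to 48 nt sequences took 9.20% of its reads, against 2.41% to 4.11% in the other 5, and results that rest on it are given with and without it.

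The sequences below carried the largest shares of reads outside microRNAs, and each leads a group of overlapping sequences described further on. They are written in the orientation in which a table lists them, and the reference used here does not annotate their origin.
group 1, leading sequence: gcgcgcgacctatacccggccgtcggggc
group 2, leading sequence: ctaacagaccggtagacttgaac
group 4, leading sequence: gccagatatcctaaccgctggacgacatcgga
group 6, leading sequence: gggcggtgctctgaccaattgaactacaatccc
group 8, leading sequence: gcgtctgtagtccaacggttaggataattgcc
group 9, leading sequence: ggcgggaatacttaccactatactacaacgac
group 10, leading sequence: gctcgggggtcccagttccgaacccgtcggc
group 11, leading sequence: gtcagaatccgggctagaagcgacgca

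The tables also held 109 rows in RNA letters that both sets list, each a mature microRNA with a count of its own. The rows carry no names. From general knowledge of mature Arabidopsis microRNA sequences 61 of them were given names of 40 families, and the others are called by their number in the table. The following are shown because they were the most abundant or moved most, with the seed (bases 2 to 8) in capitals.
miR827: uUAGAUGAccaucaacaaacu
miR408: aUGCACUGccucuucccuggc
miR398a: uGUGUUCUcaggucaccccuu
miR398b: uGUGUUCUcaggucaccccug
miR166: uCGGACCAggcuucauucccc
miR165: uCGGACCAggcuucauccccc
miR158a: uCCCAAAUguagacaaagca
miR159a: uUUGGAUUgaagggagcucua
miR169h: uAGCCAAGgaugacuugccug
The seed CGGACCA was shared by miR165 and miR166, which differ by C17U (positions counted from the 5′ end, miR165 first), and GUGUUCU by miR398a and miR398b, which differ by U21G.

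The length profile at day 20 had moved towards longer sequences. Sequences of 29 to 33 nt took 48.6% and 39.2% of listed reads at day 20, against 18.2% and 27.3% at day 12 and 31.4% and 22.1% at day 16. Both day 20 libraries lay above all 4 earlier ones, with means of 43.9% ± 6.68 (SD, n = 2) and 24.7% ± 5.80 (SD, n = 4), a difference of 19.1 percentage points. The difference was 14.4 points without the day 20 library of set 1 and 23.9 points without that of set 2. With 2 libraries against 4 the two-sided exact permutation test could not go below p = 0.0667 over both sets, or 0.111 within sets, and it gave these values.

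**Figure D1:**
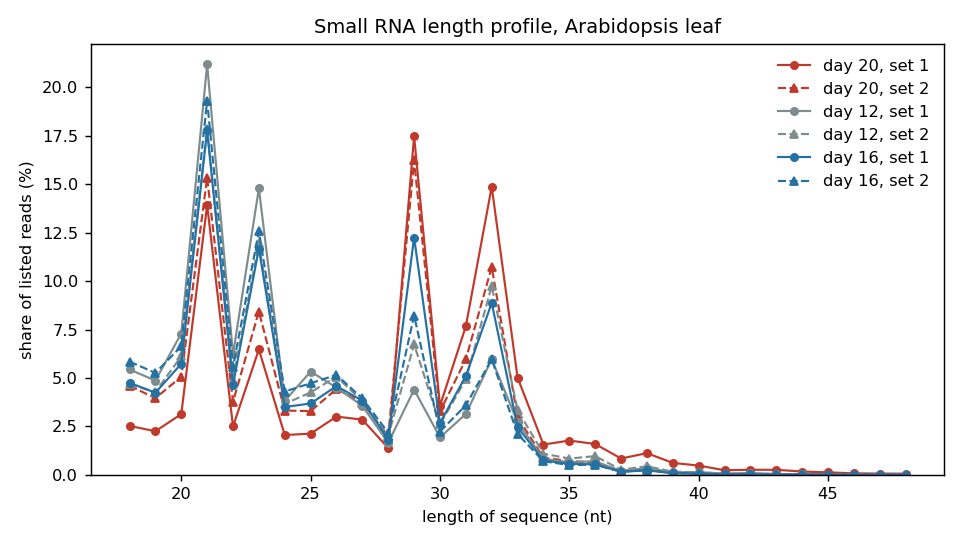
Share of listed small RNA reads (%, vertical axis) against sequence length (nt, horizontal axis), one line per library, with day 20 in red, day 12 in grey and day 16 in blue, set 1 as solid lines with circles and set 2 as dashed lines with triangles. The red lines lie above the others at 29 nt (17.5% and 16.2% against 4.39% to 12.2%) and under them at 21 and 23 nt.

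All shorter classes took smaller shares at day 20. The 21 nt class, where most microRNAs lie, took 13.9% and 15.3% at day 20, against 21.2% and 17.8% at day 12 and 17.8% and 19.3% at day 16. The 23 nt class took 6.47% and 8.43% at day 20, against 14.8% and 11.9% at day 12 and 11.7% and 12.6% at day 16. The 24 nt class, the size of heterochromatic siRNAs, was small in every library, with 2.05% and 3.32% at day 20, against 3.82% and 3.66% at day 12 and 3.50% and 4.30% at day 16. The classes of 18 to 20, 22 and 25 to 28 nt were likewise lower in both day 20 libraries than in all 4 earlier ones, where the means differed by -5.52, -2.20 and -3.63 points, each at the smallest p that the exact permutation test over both sets allows (0.0667). The class of 34 to 48 nt took 9.20% and 2.95% at day 20, against 3.22% and 4.11% at day 12 and 2.44% and 2.41% at day 16, so its groups overlapped and its difference of 3.03 points became -0.09 points without the day 20 library of set 1 (exact permutation p = 0.2 with it). Counting error was small beside these differences: the widest exact (Clopper-Pearson) 95% interval of a share spanned 0.0804 points, which covers counting error only.

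Shares are tied to each other, so the short classes were also set against each other. As a share of 20 to 25 nt reads, 21 nt sequences made up 46.1% and 39.1% at day 20, against 36.1% and 36.6% at day 12 and 37.8% and 36.4% at day 16, so on this base the 21 nt class was higher at day 20 by 5.89 points. The 24 nt class made up 6.80% and 8.46% at day 20, against 6.51% and 7.52% at day 12 and 7.44% and 8.09% at day 16, and the groups overlapped. The 23 nt class stayed lower, with 21.4% and 21.5% at day 20, against 25.2% and 24.5% at day 12 and 24.8% and 23.7% at day 16.

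The 10 most abundant sequences took 45.4% and 40.0% of these reads at day 20, against 37.2% and 36.2% at day 12 and 40.3% and 35.3% at day 16. Sequences that share at least 18 identical bases, on either strand, with a leading sequence were gathered into 12 groups in order of abundance, a choice made after the values were seen. The 12 groups, of 1243 sequences in all, held 70.1% and 63.4% of listed reads at day 20, against 57.3% and 59.8% at day 12 and 62.9% and 55.3% at day 16. Within the 29 to 33 nt class, reads in these groups made up 42.9% and 33.5% of all listed reads at day 20, against 13.1% and 21.2% at day 12 and 26.4% and 17% at day 16. Reads of 29 to 33 nt outside the groups made up 5.69% and 5.66% at day 20, against 5.07% and 6.12% at day 12 and 4.96% and 5.07% at day 16. The higher share of this class at day 20 lay in the 12 groups, while the remainder of the class overlapped between ages. The groups were ranked by mean share over these same 6 libraries, which favours sequences that were higher at day 20. Where the difference lay is therefore partly set by that choice.

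Group 1, led by the 29 nt sequence shown first above, held 171 sequences of 18 to 40 nt. Its share was 18.9% and 16.5% of listed reads at day 20, against 3.68% and 6.21% at day 12 and 12.6% and 7.62% at day 16. Both day 20 libraries were above all earlier ones, and the means of 17.7% and 7.52% differed 2.35-fold. The leading sequence alone took 16.3% and 14.5% at day 20, against 2.88% and 4.98% at day 12 and 10.8% and 6.45% at day 16, and its change did not pass edgeR (log2 change 2.34 ± 0.76 SE, adjusted p = 0.197). In both sets the day 12 share was the lowest of the 3 ages.

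Group 4, led by a 32 nt sequence and holding 215 sequences, took 14.1% and 11.3% at day 20, against 4.97% and 9.04% at day 12 and 8.75% and 6.2% at day 16. Its forms of 29 nt or more took 12.8% and 9.35% at day 20, against 3.59% and 7.02% at day 12 and 7.01% and 4.37% at day 16, with no overlap. Its shorter forms took 1.28% and 1.97% at day 20, against 1.38% and 2.02% at day 12 and 1.75% and 1.83% at day 16, and these overlapped. The difference in this group therefore lay in its long forms.

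Group 2, led by a 23 nt sequence, moved the other way. It held 87 sequences and took 14.7% and 17.3% of listed reads at day 20, against 29.7% and 25.3% at day 12 and 23.1% and 24.0% at day 16, so both day 20 libraries were below all earlier ones. Its forms under 29 nt took 10.1% and 14.2% at day 20, against 26.0% and 21.3% at day 12 and 20.2% and 21.5% at day 16. Its forms of 29 nt or more took 4.57% and 3.07% at day 20, against 3.70% and 4.05% at day 12 and 2.88% and 2.50% at day 16, and overlapped. This single group accounts for most 23 nt reads: within it they were 4.82% and 5.70% of listed reads at day 20, against 11.7% and 9.25% at day 12 and 9.03% and 9.07% at day 16. Outside it, 23 nt reads were 1.65% and 2.73% at day 20, against 3.09% and 2.70% at day 12 and 2.65% and 3.50% at day 16, and overlapped. After scaling by TMM (trimmed mean of M values) factors, the leading sequence of the group had a log2 change of 0.00 ± 0.63 (adjusted p = 0.999, edgeR), so the lower share of group 2 is a statement about shares.

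**Figure D2:**
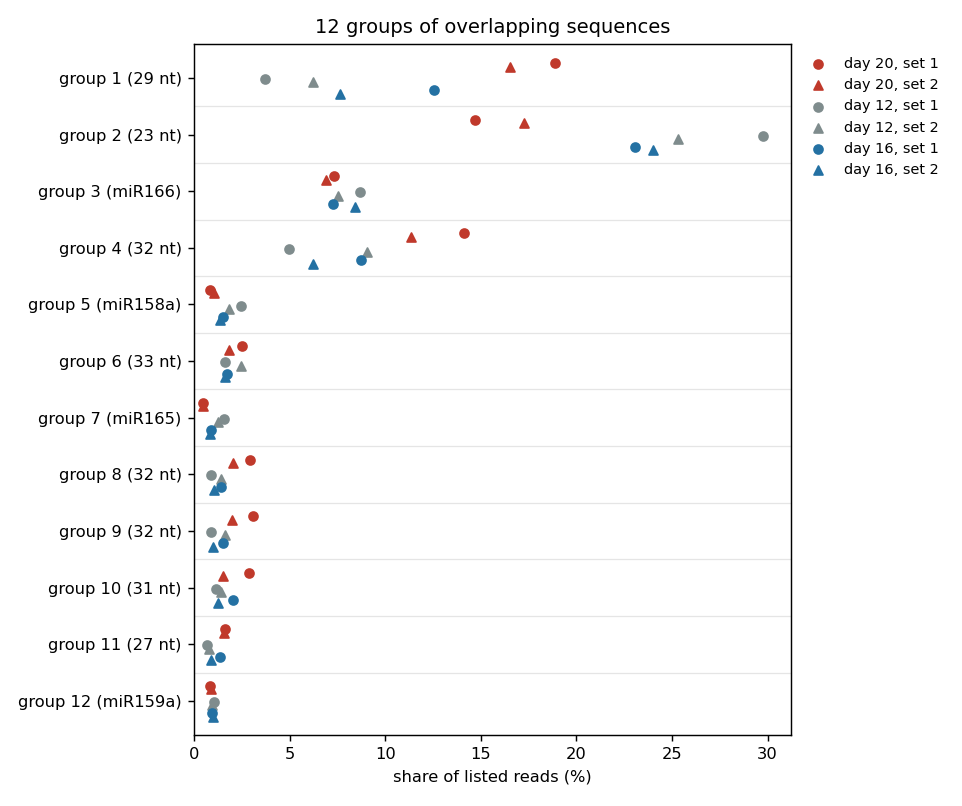
Share of listed reads (%, horizontal axis) of each of the 12 most abundant groups of overlapping sequences, labelled by their leading length or microRNA, with one point per library (day 20 in red, day 12 in grey, day 16 in blue; circles for set 1, triangles for set 2). Both red points lie right of all others in groups 1, 4, 8, 9 and 11 and left of all others in groups 2, 5, 7 and 12.

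Of the smaller groups, groups 8 and 9, both led by 32 nt sequences, also lay above all earlier libraries. Group 8 took 2.92% and 2.05% at day 20, against 0.881% and 1.4% at day 12 and 1.39% and 1.03% at day 16. Group 9 took 3.08% and 1.99% at day 20, against 0.863% and 1.59% at day 12 and 1.5% and 0.987% at day 16. Group 11, led by a 27 nt sequence, took 1.60% and 1.54% at day 20, against 0.684% and 0.755% at day 12 and 1.36% and 0.899% at day 16. Groups 6 and 10 overlapped between ages. Groups 3, 5, 7 and 12 are led by miR166, miR158a, miR165 and miR159a.

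Single sequences were tested one by one, 46841 of them, with edgeR's quasi-likelihood test, Benjamini-Hochberg adjustment over all of them and a threshold of 0.05. At day 20, 127 were higher (0.271%) and 0 were lower (0.0%). At an unadjusted p of 0.05, 4602 were higher and 835 lower. The adjusted p of the 127 lay between 0.0464 and 0.0490, close under the threshold, and their log2 changes between 2.12 and 7.13. All 127 lay above the day 12 and the day 16 library in each set, which changes of this size make likely in advance. Of them, 0 had the sequence of a microRNA row. Such sequences were 93 of the 53340 listed in both tables, so with 0.271% called a count of 0 says little about them. Their median level, averaged over the 6 libraries, was 8.95 CPM (counts scaled with TMM factors to a common library total), and the median of all sequences tested was 1.67. This average includes the day 20 libraries by which they were called, and weak sequences rarely pass, so their higher median is partly set by the selection.

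The count depended on how the libraries were compared. It was 0 with the size factors of DESeq2 in the same test, with library totals, with scaling by 20 to 25 nt sequences, with the 6 libraries alone, with either day alone as the baseline, and without any 1 of 5 of the 6 libraries. Without the day 20 library of set 2 it was 836 higher and 4 lower, and with DESeq2's own test 1600 higher and 6 lower. All 127 were among the 1600, and 108 among the 836.

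Every length class held some of the higher sequences, where 0.271% of all sequences tested were higher. They were 29 of 9516 tested at 18 to 20 nt (0.305%) and 37 of 8013 at 29 to 33 nt (0.462%). At 25 to 28 nt they were 22 of 9348 (0.235%), and at 34 to 48 nt 13 of 5296 (0.245%). The 21, 22, 23 and 24 nt classes held 8, 8, 5 and 5 (0.198%, 0.247%, 0.170% and 0.113% of those tested). By shared stretches of 18 bases they fell into 74 clusters, of which 49 were a single sequence and the largest held 9. Of the 127, 8 belonged to the 12 abundant groups described above, which held 1243 of the 53340 sequences listed in both tables. Their median GC content was 57.9%, and that of the sequences tested 53.8%.

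The 10 most abundant of the higher sequences, named s1 to s10 in order of mean level, are shown because each passed the test.
s1: cactccagtcactagccctgcc
s2: ggatgaacgctggcggca
s3: agcggaggaaaagaaactaac
s4: catagtaaggattgacagac
s5: catagtaaggattgacagact
s6: catagtaaggattgacaga
s7: gcggaggaaaagaaactaac
s8: acttcgggcatggccagctcccatagtg
s9: atcctaaccgctggacgacatcgg
s10: gtcagaatccgggctagaagcgacgcatg
Several are versions of one another: s4, s5 and s6 start with the same bases and end at different positions, s7 is s3 without its first base, s9 lies within the leading sequence of group 4 when both are read as printed, and s10 extends that of group 11.

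The most abundant, s1, had 340 and 151 CPM at day 20, against 6.19 and 11.8 at day 12 and 108 and 39.4 at day 16. Its log2 change was 3.16 ± 0.49 (adjusted p = 0.0464, edgeR). Within each set its level was lowest at day 12 and highest at day 20. The same order within each set held for s8, with 213 and 105 CPM at day 20, against 3.63 and 5.85 at day 12 and 46.1 and 17.3 at day 16 (log2 change 3.67 ± 0.57, adjusted p = 0.0464, edgeR). The end variants s4, s5 and s6 had 166 to 232 CPM in set 1 and 151 to 162 in set 2 at day 20, against 12.1 to 29.3 at day 12 and 26.3 to 85.1 at day 16. Sequence s9 had 143 and 107 CPM at day 20, against 16.6 and 22.7 at day 12 and 44.6 and 31.2 at day 16 (log2 change 2.17 ± 0.38, adjusted p = 0.0464, edgeR). Among these 10, the log2 changes ranged from 2.17 to 3.67.

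The 5 largest log2 changes, named s11 to s15, belonged to long sequences of 33 to 38 nt.
s11: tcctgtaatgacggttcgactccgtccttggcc
s12: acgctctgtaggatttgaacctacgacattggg
s13: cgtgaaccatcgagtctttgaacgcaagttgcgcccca
s14: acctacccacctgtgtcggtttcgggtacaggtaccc
s15: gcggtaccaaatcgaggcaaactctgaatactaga
Sequence s15 had 858 and 139 reads at day 20, against 9 and 30 at day 12 and 33 and 56 at day 16. Sequence s13 had 294 and 53 reads at day 20, against 1 and 8 at day 12 and 13 and 10 at day 16. For s11 the reads were 46 and 23 at day 20, against 0 and 0 at day 12 and 2 and 2 at day 16. They were 21 and 7 at day 20 for s12, against 0 and 0 at day 12 and 2 and 1 at day 16. For s14 they were 22 and 9, against 0 and 0 at day 12 and 4 and 2 at day 16. Among these 6 libraries, s11, s12 and s14 reached the 10 counts of the filter only at day 20. The size of their changes therefore rests on counts near 0. The day 20 library of set 1 was the highest for all 5, and the within-set log2 changes (0.5 CPM added) were 3.06 to 6.16 in set 1 and 1.74 to 3.04 in set 2.

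No sequence was called lower. The 3 of smallest p in that direction, s16, s17 and s18, are given as values with no call.
s16: aggagaacatgatcgtttggtacg
s17: tcacccaggttcgggtccataagca
s18: ggatagccaaggagactgcc
Sequence s18 had 15 and 9 reads at day 20, against 262 and 139 at day 12 and 259 and 68 at day 16 (log2 change -2.74 ± 0.65, adjusted p = 0.0913, edgeR). Sequence s16 had 2 and 1 reads at day 20, against 33 and 37 at day 12 and 20 and 16 at day 16 (adjusted p = 0.0841, edgeR). Sequence s17 had 0 reads in both day 20 libraries, which allows up to 3 counts in each, against 13 and 12 at day 12 and 10 and 19 at day 16 (adjusted p = 0.0907, edgeR).

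Across all sequences tested, the median log2 change was negative in every class up to 28 nt, without a steady trend, and positive in both longer classes. The median was -0.37 for 18 to 20 nt, -0.20 for 21 nt, -0.33 for 22 nt, -0.34 for 23 nt, -0.18 for 24 nt and -0.23 for 25 to 28 nt, against -0.07 for all lengths. Within sets, the medians of the classes up to 28 nt lay between -0.57 and -0.18 in set 1 and between -0.12 and -0.05 in set 2. For 29 to 33 nt the median was 0.34, with 0.31 within set 1 and 0.18 within set 2. For 34 to 48 nt it was 1.70, but 1.72 within set 1 and 0.02 within set 2. Both day 20 libraries lay above all 4 earlier ones for 21.5% of the 29 to 33 nt sequences and 24.6% of those of 34 to 48 nt, where 12.5% of all sequences did so. They lay below all 4 for 20.8% of the 18 to 20 nt sequences, where 13.3% of all sequences did so. Sequences share libraries and scaling, so these medians are descriptions.

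**Figure D3:**
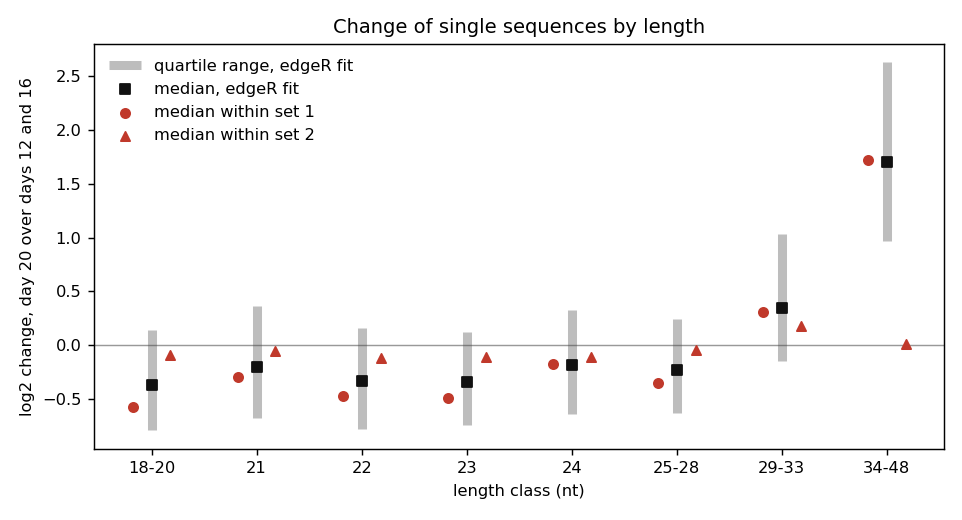
Log2 change of single sequences at day 20 over days 12 and 16 (vertical axis) by length class (nt, horizontal axis): black squares are medians of the edgeR fit, grey bars its range from the lower to the upper quartile, red circles the median within set 1 and red triangles the median within set 2. The classes of 29 to 33 nt have positive medians in both sets (0.31 and 0.18), whereas the positive median of the 34 to 48 nt class comes from set 1 (1.72 against 0.02).

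MicroRNA rows as a whole took a smaller part of the libraries at day 20. Their summed counts equalled 10.9% and 10.9% of listed reads at day 20, against 15.8% and 13.3% at day 12 and 12.6% and 13.4% at day 16. Both day 20 libraries were below all 4 earlier ones. Whether a typical microRNA is counted as higher or lower therefore depends on the scaling: the median log2 change over the 99 rows tested was 0.26 with TMM factors, 0.10 when scaled within the microRNA rows, 0.53 when scaled by 20 to 25 nt sequences and -0.62 by library totals. The TMM factor of the day 20 library of set 1 was 0.511 and that of set 2 0.956, and those of the earlier libraries lay between 1.03 and 1.61.

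With TMM factors, 1 of the 99 rows was higher at day 20 (1.01%) and 0 were lower (0.0%) in edgeR's test at an adjusted p of 0.05. At an unadjusted p of 0.05, 9 rows were higher and 2 lower. Fitted to the 6 libraries alone, 87 rows could be tested, of which 11 were higher (12.6%) and 3 lower (3.45%), and scaled within the microRNA rows 5 of the 99 were higher (5.05%) and 1 lower (1.01%). Both day 20 libraries lay above all 4 earlier ones in 21 rows (21.2%) and below all 4 in 5 (5.05%). As shares of the microRNA reads alone, 10 rows lay above (10.1%) and 24 below (24.2%).

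The row that passed was miR827, a microRNA known to rise in phosphate-starved plants. It had 426 and 238 CPM at day 20, against 52 and 53.3 at day 12 and 121 and 75.1 at day 16, a mean of 332 ± 133 (SD, n = 2) against 75.4 ± 32.3 (SD, n = 4). Its log2 change was 2.15 ± 0.40 (adjusted p = 0.00887, edgeR), and both day 20 libraries were far above all earlier ones. As a share of the microRNA reads it made up 0.2% and 0.209% at day 20, against 0.0446% and 0.0532% at day 12 and 0.0984% and 0.0897% at day 16. Per 1000 counts of miR158a, the second most abundant microRNA, there were 26.2 and 22.0 counts of miR827 at day 20, against 2.96 and 3.96 at day 12 and 8.57 and 9.18 at day 16. The share of miR158a in microRNA reads was itself lower at day 20 (7.62% and 9.49%) than before (9.77% to 15.1%), which enlarges this ratio. Over the 16 alternatives the log2 change of miR827 lay between 1.26 and 2.57. Its adjusted p rose to 0.345 without the day 20 library of set 1, to 0.132 without that of set 2, to 0.307 with day 16 alone as the baseline, to 0.116 with library totals and to 0.352 without the replicate block. Leaving out day 12 of set 1, day 16 of set 1 or day 16 of set 2 gave 0.0548, 0.108 and 0.114, with a range of 2.16e-09 to 0.352 over the alternatives.

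The microRNAs of copper shortage, which spare copper by lowering copper proteins, lay above the earlier libraries without passing the test over all 14 libraries with TMM factors. With the 6 libraries alone, miR408, miR398a and miR398b passed edgeR (adjusted p = 0.00014, 0.00316 and 0.00524). Scaled within the microRNA rows, miR408 and miR398a passed (adjusted p = 0.0027 and 0.033, edgeR), as they did scaled by 20 to 25 nt sequences (0.0353 and 0.0418), and miR398a passed with DESeq2 (adjusted p = 0.0484). For miR408 the values were 437 and 183 CPM at day 20, against 94.3 and 98.6 at day 12 and 138 and 90.3 at day 16 (log2 change 1.4 ± 0.48, adjusted p = 0.201, edgeR). For miR398b they were 10017 and 7419 at day 20, against 3242 and 3723 at day 12 and 5625 and 4588 at day 16 (log2 change 1.01 ± 0.37, adjusted p = 0.237, edgeR). The row of miR398a gave 92.8 and 59.8 at day 20, against 22.8 and 26.5 at day 12 and 44.8 and 35.5 at day 16. Its count was 21.5 times that of its exact sequence, so it may hold reads of miR398b, from which it differs by 1 base. The fourth row, miR397b, was weak, with 4.29 and 4.07 CPM at day 20, against 3.17 and 4.06 at day 12 and 3.25 and 2.35 at day 16. All 4 rows thus lay above all earlier libraries, miR397b by the narrow gap between 4.07 and 4.06, where 21.2% of rows did. As shares of microRNA reads only miR408 and miR398a did so.

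**Figure D4:**
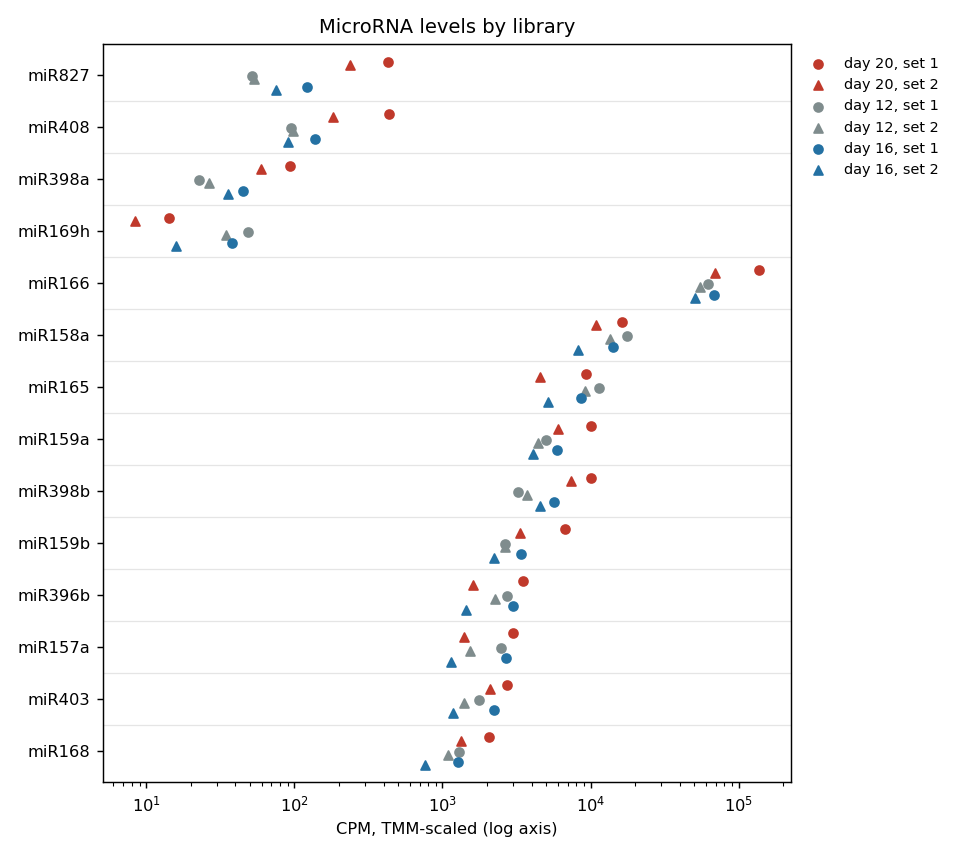
Level of 14 microRNA rows (TMM-scaled CPM, horizontal log axis) with one point per library (day 20 in red, day 12 in grey, day 16 in blue; circles for set 1, triangles for set 2). The 4 rows at the top moved most among named microRNAs above 10 CPM, and the 10 below are the most abundant; miR827 had 426 and 238 CPM at day 20 and at most 121 before.

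The 4 rows picked for the top of the plot of microRNA levels were chosen after their values were seen. The fourth of them, miR169h, moved down. It had 14.1 and 8.33 CPM at day 20, against 48.9 and 34.7 at day 12 and 37.8 and 15.8 at day 16 (log2 change -1.56 ± 0.68, adjusted p = 0.346, edgeR). Both day 20 libraries lay below all earlier ones, and scaled within the microRNA rows it was the 1 row called lower (log2 change -1.72, adjusted p = 0.0241, edgeR). It was also called with the 6 libraries alone and with library totals (adjusted p = 0.000152 and 0.0287, edgeR). Its row count was 1.95 times that of its exact sequence.

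The leaf polarity microRNAs miR165 and miR166, which share a seed and the class III homeodomain targets, differed from each other. The most abundant microRNA, miR166, had 138098 and 69597 CPM at day 20, against 61678 and 54739 at day 12 and 68081 and 50803 at day 16 (log2 change 0.74 ± 0.29, adjusted p = 0.26, edgeR; adjusted p = 0.0381 with the 6 libraries alone; log2 change -0.17 by library totals). For miR165 the values were 9298 and 4537 at day 20, against 11424 and 9159 at day 12 and 8573 and 5146 at day 16 (log2 change -0.36 ± 0.31, adjusted p = 0.806, edgeR). The ratio of their counts does not depend on scaling. There were 14.9 and 15.3 counts of miR166 per count of miR165 at day 20, against 5.40 and 5.98 at day 12 and 7.94 and 9.87 at day 16. The day 20 ratios lay above all earlier ones, with means of 15.1 and 7.30. This ratio was chosen after its values were seen. As a share of microRNA reads miR165 took 4.37% and 3.98% at day 20, against 9.80% and 9.15% at day 12 and 6.97% and 6.14% at day 16.

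Of the other abundant microRNAs, miR158a, which targets pentatricopeptide repeat genes, had 16215 and 10828 CPM at day 20, against 17564 and 13451 at day 12 and 14126 and 8179 at day 16 (log2 change 0.04 ± 0.30, adjusted p = 0.988, edgeR). Growth-related miR159a, which targets MYB factors, had 10112 and 5993 at day 20, against 4976 and 4397 at day 12 and 5907 and 4105 at day 16 (log2 change 0.66 ± 0.72, adjusted p = 0.86, edgeR). For miR168, which targets ARGONAUTE1, the values were 2060 and 1334 at day 20, against 1290 and 1083 at day 12 and 1272 and 766 at day 16 (adjusted p = 0.806, edgeR). These groups lay apart for miR159a and miR168 and overlapped for miR158a. The gaps were narrow, between 5993 and 5907 for miR159a and between 1334 and 1290 for miR168. As shares of microRNA reads both of these overlapped, and miR158a lay below all earlier libraries. By library totals the log2 changes of miR159a and miR168 were -0.20 and -0.25. The rows of miR159b, miR396b, miR157a and miR403, which complete the 10 most abundant, overlapped between ages, with log2 changes of 0.02 to 0.75.

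By function, none of the 11 groups of rows held a called member other than miR827. In phase change, 7 rows of miR156, miR157 and miR172 had log2 changes above 0, between 0.11 and 0.77, and all 7 overlapped between ages. Among 9 rows of leaf growth and senescence regulators (miR159, miR164, miR319 and miR396) the median log2 change was 0.62, against 0.26 over all rows, and 4 of the 9 lay above all earlier libraries, as did 21.2% of all rows. These were miR159a, miR159c, miR164c and miR319c. The miR159c row held 12.8 times the count of its exact sequence, and miR164c had only 13 and 19 reads at day 20. As shares of microRNA reads the group was mixed, with miR159b and miR159c above all earlier libraries and miR164a, miR319a and miR396b below. The senescence-linked miR164a, which targets the NAC factor ORE1, had 8.07 and 4.63 CPM at day 20, against 13.1 and 8.21 at day 12 and 12.0 and 4.16 at day 16 (log2 change -0.48, adjusted p = 0.86, edgeR). In auxin signalling, 4 rows had log2 changes between 0.14 and 0.71 and all overlapped. The triggers of trans-acting siRNAs, miR173 and miR390, had log2 changes of 0.79 and 0.55 and overlapped.

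The nutrient group was mixed. Of its 8 rows tested, 3 lay above all earlier libraries (miR827, miR399b and miR395a) and 2 below (miR169h and miR399a). Over all rows 21.2% lay above and 5.05% below. At day 20 miR395a had only 7 and 5 reads, against 4 and 4 at day 12 and 7 and 11 at day 16. For miR399a the reads were 4 and 6 at day 20, against 8 and 27 at day 12 and 10 and 36 at day 16. By share of microRNA reads, miR395a, miR399a and miR399b overlapped between ages. On that base miR827 stayed above, and miR169h and miR169a lay below. For miR399b, which targets the phosphate regulator PHO2, the values were 77.9 and 62.9 CPM at day 20, against 32.3 and 39.2 at day 12 and 62.8 and 42.9 at day 16 (log2 change 0.68, adjusted p = 0.722, edgeR). Its lower day 20 value and its highest earlier one lay within 1 CPM of each other. The group's median log2 change was -0.13, against 0.26 over all rows.

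Among the 39 unnamed rows tested, 0 were called. The most abundant with an unadjusted p under 0.05 was row59, with 3.03 and 4.07 CPM at day 20, against 19 and 9.25 at day 12 and 12.6 and 5.57 at day 16 (log2 change -1.39, adjusted p = 0.346, edgeR). On the other side, row108 had 3.28 and 3.33 CPM at day 20, against 0.604 and 0.566 at day 12 and 1.91 and 0.470 at day 16 (log2 change 2.07, adjusted p = 0.159, edgeR). Both are given as values with no call.

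Transcripts targeted by these microRNAs were read in the total RNA of the same ages, in FPKM. Over all 18239 genes tested with limma on log2(FPKM + 1), which understates changes of weak genes, 2868 (15.7%) were higher and 1141 (6.26%) lower at day 20, with a median change of 0.18. Of 68 listed target genes 59 were tested, 11 were higher (18.6%) and 4 lower (6.78%), with a median change of 0.12, so the list as a whole stood near the background. Small RNA and total RNA were not tied library to library, and no relation between them was tested.

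Of 5 tested targets of the copper microRNAs, 3 were lower and 0 higher, where 6.26% of all genes were lower. By family, 1 of 3 tested targets of miR398 and 2 of 2 of miR397 were lower. The families were grouped with earlier results of these data known, so the joint count is a description. The row of miR397b was itself weak and not called (log2 change 0.39, adjusted p = 0.93, edgeR). CSD2 (AT2G28190), the chloroplast copper/zinc superoxide dismutase targeted by miR398, had 37.4 and 35.9 FPKM at day 20, against 117 and 97.2 at day 12 and 82.9 and 66.1 at day 16 (log2 change -1.25 ± 0.26, adjusted p = 0.00242, limma). Both day 20 values were below all earlier ones. The cytosolic CSD1 had 63.8 and 78.9 FPKM at day 20, against 96.6 and 89.2 at day 12 and 69.2 and 73.2 at day 16, and the copper chaperone CCS 14.7 and 16.6 at day 20, against 26.3 and 20.9 at day 12 and 25.2 and 19.5 at day 16. Neither passed (adjusted p = 0.562 and 0.198, limma). The laccases targeted by miR397, which polymerise lignin, were lower, LAC4 with 0.414 and 0.322 FPKM at day 20, against 3.47 and 2.29 at day 12 and 1.43 and 1.11 at day 16 (log2 change -1.11 ± 0.24, adjusted p = 0.00377, limma). For LAC17 the values were 0.112 and 0.548 FPKM at day 20, against 3.38 and 2.46 at day 12 and 1.28 and 0.687 at day 16 (adjusted p = 0.00378, limma). The targets listed for miR408 were too weak to be tested.

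**Figure D5:**
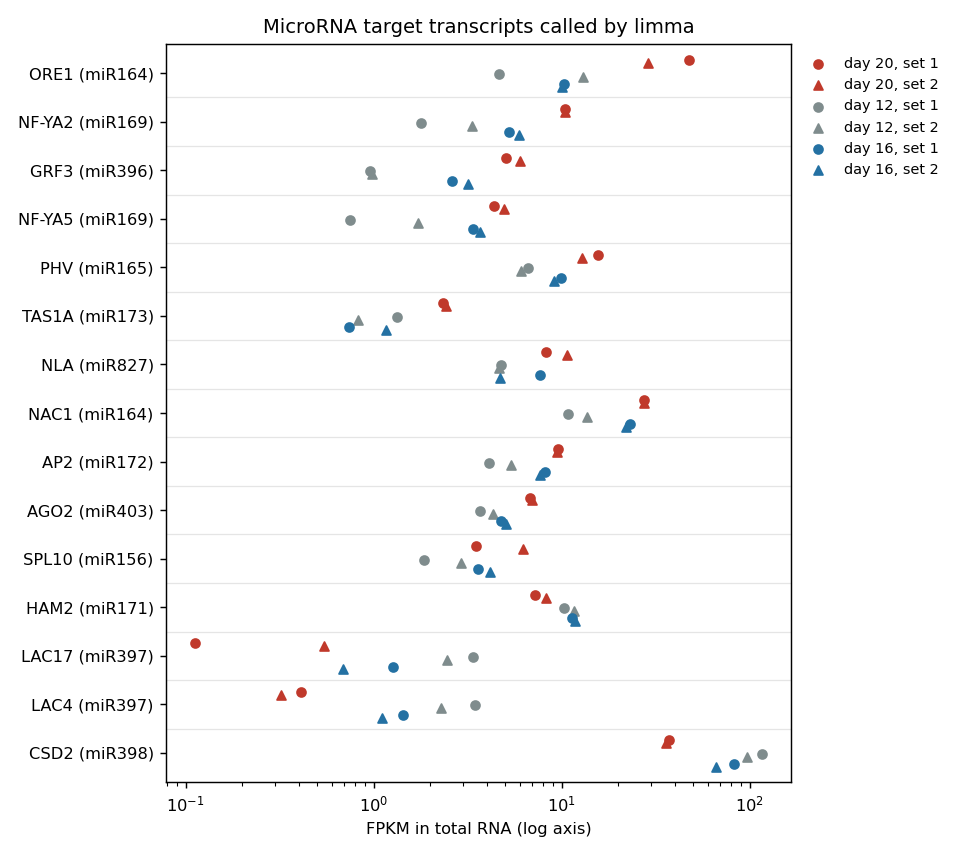
Level of the 15 microRNA target transcripts called by limma (FPKM in total RNA, horizontal log axis), ordered by log2 change, with the targeting family in brackets and one point per library (day 20 in red, day 12 in grey, day 16 in blue; circles for set 1, triangles for set 2). The red points lie right of the others from ORE1 (47.5 and 28.7 FPKM at day 20) down to AGO2, overlap for SPL10 and lie left of them from HAM2 to CSD2 (37.4 and 35.9 FPKM).

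Among the higher targets, the NAC factor ORE1 (AT5G39610), a promoter of leaf senescence targeted by miR164, had 47.5 and 28.7 FPKM at day 20, against 4.67 and 13 at day 12 and 10.3 and 10.0 at day 16 (log2 change 1.93 ± 0.38, adjusted p = 0.00169, limma). NF-YA2, targeted by miR169, had 10.4 and 10.5 FPKM at day 20, against 1.79 and 3.35 at day 12 and 5.28 and 5.94 at day 16 (log2 change 1.25 ± 0.19, adjusted p = 0.000208, limma). NF-YA5, from the same family, had 4.39 and 4.91 at day 20, against 0.747 and 1.72 at day 12 and 3.38 and 3.69 at day 16. GRF3, a growth regulator targeted by miR396, had 5.05 and 6.00 FPKM at day 20, against 0.953 and 0.976 at day 12 and 2.60 and 3.18 at day 16 (log2 change 1.24 ± 0.17, adjusted p = 6.43e-05, limma). These 4 genes lay above all earlier libraries, and in both sets day 16 lay above day 12 for NF-YA2, NF-YA5 and GRF3.

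NLA, the ubiquitin ligase targeted by miR827 that limits phosphate uptake, was higher, with 8.24 and 10.7 FPKM at day 20, against 4.79 and 4.62 at day 12 and 7.71 and 4.71 at day 16 (log2 change 0.71 ± 0.19, adjusted p = 0.0123, limma). PHV, a target of miR165 and miR166, had 15.6 and 12.9 FPKM at day 20, against 6.62 and 6.06 at day 12 and 9.89 and 9.09 at day 16 (log2 change 0.79 ± 0.20, adjusted p = 0.00901, limma). The 4 other class III homeodomain genes, PHB, REV, ATHB8 and ATHB15, were not called, with log2 changes between -0.67 and 0.34. AGO2, targeted by miR403, had 6.81 and 6.99 FPKM at day 20, against 3.70 and 4.31 at day 12 and 4.77 and 5.09 at day 16 (log2 change 0.54 ± 0.13, adjusted p = 0.00884, limma). AGO1 and DCL1, which miR168 and miR162 target in the small RNA pathway itself, were not called, with log2 changes of 0.12 each (adjusted p = 0.607 and 0.527, limma).

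NAC1, AP2, SPL10 and TAS1A were also higher, and HAM2, a meristem factor targeted by miR171, was lower. Of the 15 calls, those of GRF3 and NF-YA2 held under all 11 alternatives, that of ORE1 under 10, those of CSD2, LAC4, LAC17, PHV and NF-YA5 under 9, AGO2 under 8, NLA and NAC1 under 7, TAS1A under 5, AP2 and HAM2 under 3 and SPL10 under 1. Leaving out the day 20 library of set 1 ended 13 of the 15, leaving out that of set 2 ended 7, and day 16 alone as the baseline ended 12. The targets of miR159 (MYB33 and MYB65), miR160, miR167, miR319 and miR393 held 0 called genes of 15 tested. Over all genes 15.7% were higher and 6.26% lower. Each of these families had 0 calls by itself, so the joint 0 follows from which families were joined and is no result about them. Leaving out the total RNA library of day 20 in set 1 took the count of higher genes over the whole table to 841, against 2868 with it.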

How the data were processed

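The authors deposited small RNA as a raw count of each sequence per library, 1 table per set, and total RNA as FPKM of each transcript, which was summed here per gene. TopHat 1.4.0, Cufflinks and TAIR10 are listed in the submitters' processing notes. Their use for small RNA, adapter trimming and the rule for listing a sequence are not given in the sources used here. In either table, the second-highest count of a listed sequence is never under 5, so weaker sequences are not in the sums.

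Rows in RNA letters were set aside, and a sequence and its reverse complement were used once, which left 57216 and 81538 sequences, 53340 of them in both tables. For 36 of the 109 RNA-letter rows the set 1 table lists only the reverse complement in DNA letters. Of 93 rows with an exact DNA-letter match in both tables, 10 held over 1.5 times its count, so counts of near-identical microRNAs are uncertain. Sequences that reached 10 counts in 2 or more libraries were fitted with edgeR 4.0.16 (quasi-likelihood) over all 14 libraries, with day as a factor, the set as a block and TMM factors, for day 20 minus the mean of days 12 and 16. RNA-letter rows were fitted the same way with the library sizes and factors of the sequences. SE is the log2 change divided by the root of the F value. Genes that reached 1 FPKM in 2 or more of 28 libraries were fitted with limma 3.58.1 (trend) on log2(FPKM + 1). P-values were adjusted by Benjamini-Hochberg with a threshold of 0.05. The fits were tested on simulated data drawn with the spread estimated in these data. Such a test cannot show how the calls depend on scaling or on single libraries. Alternatives included DESeq2 1.42.0 (R 4.3.3).

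Sequences named are the 10 most abundant and the 5 largest changes among those past the threshold with day 20 on the same side of both earlier libraries in each set, and the 3 of smallest p where none passed. Named microRNA rows are those that passed, the 10 most abundant and the leading members of the functional groups. Named target genes are those of microRNA families that passed or of the 10 most abundant, and others are given as members of the list. The libraries, microRNA groups and target list were chosen with earlier results of these data known. Gene names come from RefSeq (TAIR10.1), and no genome was used.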

Additional observations from a re-analysis of the deposited data

Results flagged for a closer look

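In 3 of 52 values checked, 1 of the 4 libraries of days 12 and 16 lay far from the other 3: its gap to the nearest, as a part of the whole range, passed Dixon's 95% critical value for 4 libraries, which chance does in about 1 in 20 such groups. Group 6 of overlapping sequences held 2.53% and 1.82% of listed reads at day 20, against 1.59% and 2.47% at day 12 and 1.70% and 1.63% at day 16, with the day 12 library of set 2 apart (0.875). Sequence s3 had 258 and 140 CPM at day 20, against 21.6 and 19.6 at day 12 and 72.4 and 27.2 at day 16, with the day 16 library of set 1 apart (0.856). Its shorter form s7 had 180 and 155 at day 20, against 15.4 and 19 at day 12 and 74.5 and 23.8 at day 16, with the same library apart (0.857). The cause was not tested.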

How the results depend on the processing

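The count of single sequences called higher depended on nearly every choice. Against 127, it was 196 without the replicate block, 1600 (and 6 lower) with DESeq2, 0 with the 6 libraries alone, DESeq2 size factors, 20 to 25 nt scaling, day 12 or day 16 alone as the baseline, library totals, or sequences of either table, and 0 to 836 higher and 0 to 4 lower with 1 library left out, where the lone library of a day is assumed to vary like the other days. Without a filter it was 150. For microRNA rows the count of higher calls, 1, became 0 without the replicate block, 11 (and 3 lower) with the 6 libraries alone, 5 with DESeq2, 6 with 20 to 25 nt scaling, 0 with day 16 alone, 0 (and 3 lower) with library totals, 5 (and 1 lower) with scaling within the microRNA rows, and 0 to 1 with 1 library left out. Library totals and scaling within the microRNA rows were chosen after seeing the data. The median log2 change over all sequences was -0.07 with TMM factors, -0.95 with library totals and 0.18 with 20 to 25 nt scaling.

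Among named microRNAs some log2 changes turned negative. With library totals they were -0.73 for miR157a, -0.84 for miR158a, -0.20 for miR159a, -0.11 for miR159b, -0.17 for miR166, -0.25 for miR168, -0.84 for miR396b and -0.29 for miR403. Within the microRNA rows they were -0.020 for miR157a, -0.14 for miR158a and -0.11 for miR396b. With day 12 alone they were -0.23 for miR158a and -0.14 for miR396b, and with the 6 libraries alone -0.026 for miR158a. With 1 library left out, miR157a ranged from -0.040 to 0.37, miR158a from -0.11 to 0.18 and miR396b from -0.21 to 0.34. Positive under all 16 alternatives were miR827 (lowest 1.26), miR408 (0.51), miR398a (0.34) and miR398b (0.14), and negative under all were miR165 and miR169h, whereas miR166, miR159a and miR168, also above their earlier libraries, turned negative with library totals as given.

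In the length profile, the 20 to 25 nt denominator turned 21 nt to 5.89 points and 24 nt to 0.24 points. With 1 library left out, the 34 to 48 nt difference ranged from -0.091 to 6.16 points and the 29 to 33 nt difference from 14.4 to 23.9.

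In total RNA, 2868 genes higher and 1141 lower became 774 and 301 with day 16 alone, and 841 to 2454 and 295 to 1082 with 1 library left out. Log2 changes near 0 turned with day 12 alone to 0.030 for TCP2, 0.18 for TCP3, 0.13 for TCP24, 0.050 for GRF2, 0.075 for ARF6 and 0.088 for ARF8, and with day 16 alone to -0.063 for TOE1, -0.026 for TCP10, -0.13 for GRF1, -0.0043 for ARF16, -0.070 for DCL1 and -0.0047 for AGO1. With 1 library left out, the ranges that crossed 0 were -0.53 to 0.34 for SPL3, -0.12 to 0.082 for ARF8, -0.43 to 0.039 for CSD1, -0.067 to 0.84 for TAS1C, -0.27 to 0.16 for TCP3, -0.11 to 0.099 for TCP24, -0.062 to 0.15 for GRF1, -0.11 to 0.031 for GRF2, -0.00016 to 0.24 for DCL1, -0.041 to 0.28 for AGO1, -0.052 to 0.41 for TAS1B and -0.0011 to 0.20 for ATHB15.

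The set numbers do not clearly pair the small RNA libraries: the set differences of days 12 and 16 correlated at -0.248 across sequences, of days 12 and 20 at 0.171 and of days 16 and 20 at 0.222. The total RNA values were 0.302, 0.246 and 0.280. Without the replicate block 2247 genes were higher and 930 lower. The causes of these differences were not tested. Depth limits sequences near 10 counts.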
